A study of Mus musculus with 4 samples.

Results

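The genes described here carry out and control the first 2 steps of branched-chain amino acid breakdown in mouse gastrocnemius, the fast-twitch muscle of the calf. They are 7 genes taken from a list: the aminotransferases Bcat1 and Bcat2, the keto acid dehydrogenase subunits Bckdha, Bckdhb and Dbt, the kinase Bckdk and the phosphatase Ppm1k. All 7 were found among 22180 genes on the array, each read by 1 transcript cluster (the unit in which this array reports a transcript), and 6 passed the filter on low values. Bcat1 did not pass it.

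RNA was read on Affymetrix arrays, 1 array for each of 4 groups. These were mice with a skeletal muscle specific KLF15 knockout given streptozotocin (KO STZ), the same knockout given sodium citrate (KO vehicle), wild-type mice given streptozotocin (WT STZ) and wild-type mice given sodium citrate (WT vehicle). Streptozotocin (STZ) kills pancreatic beta cells, the source of insulin, and serves as a model of diabetes. It was injected into the peritoneum at 50 mg/kg for 5 days in a row, and all muscles were collected at 3 weeks. The sources used here do not give the Cre line behind the knockout, the strain, sex and age of the mice, or whether an array stands for 1 animal or a pool.

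With 1 array a group there is no error between animals, so nothing could be tested and p-values are absent. "Lower" and "higher" therefore compare single arrays. The fold used for counting was 1.5, or 0.58 on the log2 scale. As checks of the labels, Klf15 read 16.0 in KO STZ and 19.8 in KO vehicle, against 72.1 in WT STZ and 50.5 in WT vehicle, and 10 of 10 muscle fibre markers passed the filter, with summed intensities between 54102 and 56350 on the 4 arrays.

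Leucine, isoleucine and valine are first stripped of their amino group by a branched-chain aminotransferase, which passes it to alpha-ketoglutarate and leaves a branched-chain keto acid. The mitochondrial branched-chain keto acid dehydrogenase then removes carbon dioxide from the keto acid and commits it to oxidation. A dedicated kinase shuts this complex off by phosphorylating its E1 alpha subunit, and a phosphatase switches it back on. Skeletal muscle is known for its high aminotransferase activity, so that much of the body's transamination of these amino acids takes place there. Bcat2 is known as a gene that KLF15, a zinc-finger transcription factor, controls in muscle.

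The aminotransferase, 1 catalytic subunit of the dehydrogenase and its core subunit were lower in KO than in WT muscle under both treatments. Bcat2 stood at 45.4% of the WT intensity under STZ and 61.5% under vehicle, Bckdhb at 52.8% and 46.1%, and Dbt at 55.1% and 59.9%. Under vehicle Bckdha was lower by less, Bckdk by less again, and Ppm1k lay close to WT. Under STZ these genes were nearly alike, with Bckdha at 80.9% of WT, Bckdk at 81.9% and Ppm1k at 85.1%. STZ itself moved none of the 6 genes past the filter by 1.5-fold in either genotype. Few genes of any kind passed this mark: 0.656% were lower and 0.445% higher in KO, and 0.445% and 1.27% in WT.

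**Figure D1:**
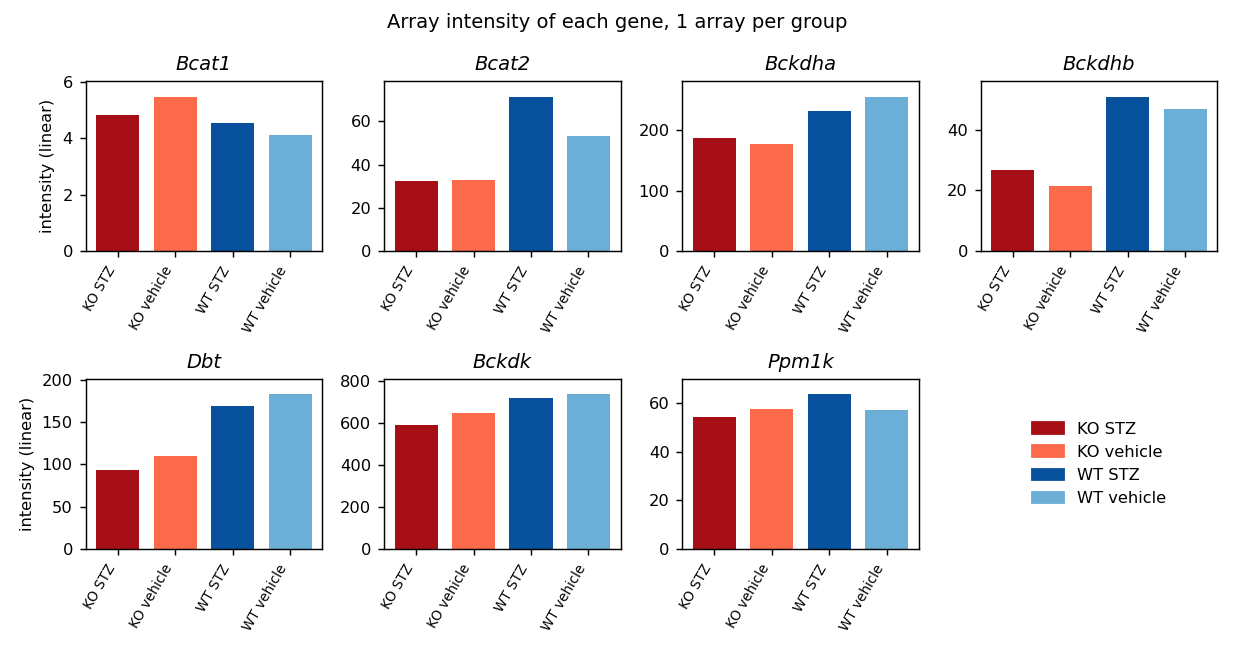
Linear array intensity (vertical axes, each from 0 with its own scale) of the 7 genes on the 4 arrays, 1 bar per array and no error bars. In Bcat2, Bckdha, Bckdhb, Dbt and Bckdk both KO bars lie below both WT bars, while Bcat1 stays under an intensity of 6 on every array.

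Because Bcat2 and Bckdhb were low in KO under both treatments and Ppm1k was not, the 250 bases before the listed start of each are shown. The factors of the KLF family are known to bind CACCC boxes and GC-rich sites, and capitals mark CACCC or its reverse complement GGGTG. The sequences are RefSeq's on GRCm38.p6, 5′ to 3′ on the gene's strand. They are chr7:45569903-45570152 on the plus strand for Bcat2, chr9:83924887-83925136 on the plus strand for Bckdhb and chr6:57535488-57535737 on the minus strand for Ppm1k.
Bcat2: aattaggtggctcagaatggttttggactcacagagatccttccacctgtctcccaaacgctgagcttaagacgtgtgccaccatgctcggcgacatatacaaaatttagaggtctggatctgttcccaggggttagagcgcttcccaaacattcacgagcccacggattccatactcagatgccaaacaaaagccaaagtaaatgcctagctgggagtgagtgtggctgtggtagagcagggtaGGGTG
Bckdhb: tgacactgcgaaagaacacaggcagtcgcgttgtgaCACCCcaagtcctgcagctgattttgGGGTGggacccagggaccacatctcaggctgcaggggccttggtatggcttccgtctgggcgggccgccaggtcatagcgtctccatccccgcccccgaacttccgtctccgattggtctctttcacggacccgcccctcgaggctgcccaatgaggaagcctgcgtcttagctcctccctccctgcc
Ppm1k: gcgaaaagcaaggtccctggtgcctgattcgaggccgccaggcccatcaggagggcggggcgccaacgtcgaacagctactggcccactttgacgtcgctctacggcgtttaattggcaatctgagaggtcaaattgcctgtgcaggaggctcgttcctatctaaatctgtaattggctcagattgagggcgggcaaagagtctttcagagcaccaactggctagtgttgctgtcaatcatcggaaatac

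The Bcat2 window held 1 copy, as GGGTG, whose first base lay 5 bases before the start. The Bckdhb window held 2 copies, beginning 214 bases (CACCC) and 188 bases (GGGTG) before the start, and the Ppm1k window held 0. Such a motif is common: 52.0% of 32851 windows of this length held at least 1 copy on either strand, and 21.1% held 2 or more. The Bckdk window held 1, the Bckdha window 0, and each of the 2 windows of Bcat1 held 1. A second listed start of Bcat2 and one of Bckdhb had 0 each. The GC box GGGCGG, searched on both strands, occurred 3 times in the Bckdhb window and 2 times in that of Ppm1k, without overlap with CACCC, and was present in 32.7% of all windows. Windows were matched for 6 of the 7 genes, all but Dbt, and which start is used in muscle was not measured.

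Bcat2 encodes the mitochondrial aminotransferase, the form of most tissues outside the brain. Its intensity was 32.4 in KO STZ against 71.4 in WT STZ, and 32.8 in KO vehicle against 53.4 in WT vehicle. The KO arrays were nearly equal, and the WT STZ array was the highest of the 4. On the log2 scale, with the offset of 3.69 added to each intensity, the KO difference was -1.06 under STZ and -0.64 under vehicle. Of 13258 genes past the level filter, 35 were as low or lower under STZ and 75 under vehicle, Bcat2 counted. At 2-fold, Bcat2 was the 1 gene of 6 that was lower under STZ, where 0.287% of all genes were, and 0 of 6 were lower under vehicle, where 0.0754% were. Bckdhb fell just short of 2-fold under vehicle, at -0.998.

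Bcat1 encodes the cytosolic aminotransferase, best known from brain, embryonic tissue and tumours. It read 4.83 in KO STZ and 5.47 in KO vehicle, against 4.55 in WT STZ and 4.10 in WT vehicle. All of these lie below 5.81, the intensity that the level filter corresponds to, and 30.8% of genes were dimmer, so no direction is drawn from its differences of 0.05 under STZ and 0.23 under vehicle. Without detection calls, a dim reading cannot be told apart from absence.

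Bckdha and Bckdhb encode the alpha and beta subunits of E1, the part of the dehydrogenase that decarboxylates the keto acid. Bckdhb read 26.8 in KO STZ against 50.8 in WT STZ, and 21.5 in KO vehicle against 46.6 in WT vehicle. Both KO arrays were well below both WT arrays, and the KO vehicle array was the lowest. Its log2 differences were -0.84 under STZ and -0.998 under vehicle, with 89 and 11 genes as low or lower. Under vehicle this was the most negative difference among the 6 genes.

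Bckdha, whose product carries the site that the kinase phosphorylates, read 187 in KO STZ against 231 in WT STZ, and 176 in KO vehicle against 254 in WT vehicle. Both KO arrays were below both WT arrays, but by less than for its partner subunit. The log2 differences were -0.30 under STZ, where 15.4% of genes were as low or lower, and -0.52 under vehicle, where 1.27% were. The difference under STZ depended on the scaling: it was -0.098 after quantile normalization and -0.14 with a loess trend removed, with the sign unchanged.

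Dbt encodes E2, the lipoate-bearing core of the complex that hands the acyl group to coenzyme A. It read 93.3 in KO STZ against 169 in WT STZ, and 109.5 in KO vehicle against 183 in WT vehicle. The KO and WT arrays were well apart, and within each genotype the STZ array was the lower. Its log2 differences of -0.83 under STZ and -0.72 under vehicle placed 90 and 49 genes as low or lower.

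Bckdk, the kinase that inactivates the complex, read 588 in KO STZ against 718 in WT STZ, and 646 in KO vehicle against 735 in WT vehicle. The KO arrays were again the lower pair, but the log2 differences of -0.29 and -0.19 were no larger than those of many other genes: 16.7% of genes were as low or lower under STZ and 16.9% under vehicle. Under quantile normalization the difference under STZ was -0.072. Ppm1k, the mitochondrial phosphatase that reactivates the complex, read 54.2 in KO STZ against 63.7 in WT STZ, and 57.5 in KO vehicle against 57.2 in WT vehicle. Its log2 differences were -0.22 and 0.0070, so the enzymes that set the phosphorylation of the complex stood closer to WT than Bcat2, Bckdhb and Dbt did.

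**Figure D2:**
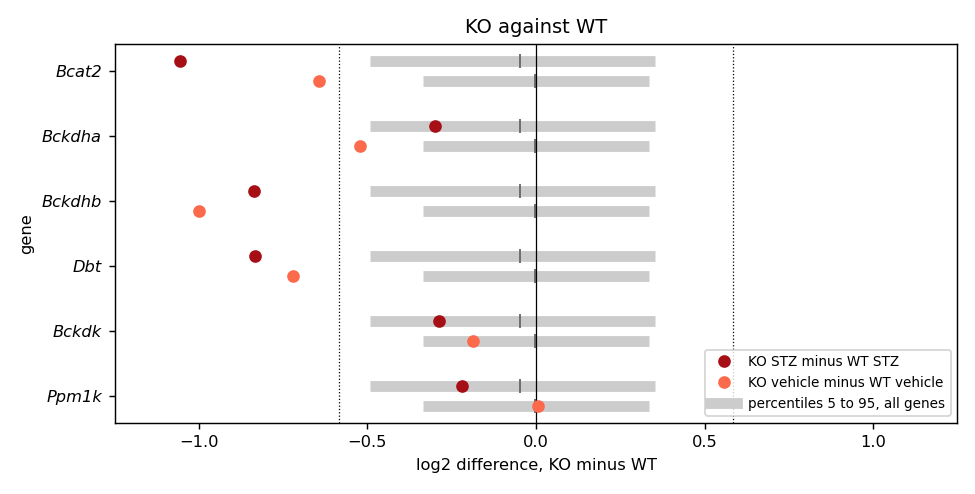
Log2 difference between KO and WT (horizontal axis) of the 6 genes past the level filter, with 1 point for STZ and 1 for vehicle per gene; grey bars span percentiles 5 to 95 of all 13258 genes, ticks mark their median and dotted lines mark 1.5-fold. Bcat2, Bckdhb and Dbt lie beyond the lower dotted line under both treatments, and Bckdk and Ppm1k lie inside the grey bars.

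Counted together, under STZ 3 of 6 genes stood 1.5-fold or more below WT in KO, where 2.81% of all genes did, and under vehicle also 3 of 6, where 0.777% did. They were Bcat2, Bckdhb and Dbt both times, 3 of the 32 genes (0.241% of all) that passed this mark under both treatments. None of the 6 was 1.5-fold higher, against 0.845% of all genes under STZ and 0.581% under vehicle. The median log2 difference of the 6 was -0.57 under STZ and -0.58 under vehicle, beside medians over all genes of -0.048 and -0.0039. The median under STZ was -0.39 after quantile normalization, and -0.30 over all 7 genes with no level filter. The 6 are bright genes, all above percentile 75 of level, and the KO STZ array read bright genes as a whole lower than the WT STZ array did, with a median difference of -0.11 over 7212 genes. Among these, 4.08% were 1.5-fold lower under STZ and 0.804% under vehicle.

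In 5 of 6 genes, all but Ppm1k, both KO arrays were below both WT arrays. The same order held for 23.9% of all genes and for 30.9% of those above percentile 75. In whole muscle, fewer cells of a type and less RNA per cell cannot be told apart. Summed intensities of 6 fibroblast markers were 3334 in KO STZ and 3288 in KO vehicle, against 3133 in WT STZ and 2863 in WT vehicle. Dcn makes up most of this sum, and 2 of the 6 markers, both collagen genes, were at least 1.5-fold higher in KO under both treatments. Of all genes, 0.845% were that much higher under STZ and 0.581% under vehicle. Col1a1 read 756 in KO STZ against 399 in WT STZ, and 721 in KO vehicle against 425 in WT vehicle, log2 differences of 0.92 and 0.76. Col1a2 stood at 0.75 under STZ and 0.68 under vehicle. The other 4 fibroblast markers lay between -0.24 and -0.033 under STZ and between -0.043 and 0.27 under vehicle. The 5 adipocyte markers measured summed to 119 in KO STZ and 196 in KO vehicle, against 169 in WT STZ and 159.9 in WT vehicle, and none was at 0. Of the 4 past the level filter, 1 was 1.5-fold lower in KO under STZ and 0 under vehicle, beside 2.81% and 0.777% of all genes. All 4 were below WT in KO under STZ, with a median log2 difference of -0.45. Under vehicle 0 of 4 were below WT, with a median of 0.22. In KO STZ against KO vehicle the median was -0.61, and 2 of 4 were 1.5-fold lower, beside 0.656% of all genes. The sums were 351 and 292 against 330 and 276 for 8 macrophage markers, and 696 and 772 against 630 and 636 for 6 endothelial markers, in the same order of arrays. The 4 nerve markers measured gave 182 and 196 against 191 and 230, and the 4 satellite cell markers 48.1 and 43.6 against 44.6 and 42.4. Pmp22 makes up most of the nerve sum, at 153 and 172 against 164 and 203. Of these last 4 lists, 0 markers past the filter were 1.5-fold different between genotypes. Yet 0 of 6 endothelial markers were below WT in KO under vehicle, with a median log2 difference of 0.34. Under STZ 2 of 6 were below WT, with a median of 0.040. The part of these cells in the differences of the 6 genes was not tested.

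The STZ comparisons asked whether diabetes alters these genes in each genotype. Bcat2 read 71.4 in WT STZ against 53.4 in WT vehicle, a log2 difference of 0.40, and 674 genes were as high or higher. In KO muscle it read 32.4 under STZ against 32.8 under vehicle, a difference of -0.016. Its sign turned in 2 of 8 alternatives, to 0.024 after quantile normalization and 0.036 with a loess trend removed. The alternatives of offset, level filter and cluster choice could not turn it. Subtracting the WT effect from the KO effect gave -0.41, with 10.5% of genes as low or lower.

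Bckdhb was higher under STZ in both genotypes by less than 1.5-fold, at 0.28 in KO and 0.12 in WT, and Dbt was lower in both, at -0.22 and -0.11. Bckdk differed by -0.13 in KO and -0.034 in WT. Bckdha stood at 0.084 in KO and -0.14 in WT, and Ppm1k at -0.081 in KO and 0.15 in WT. Of the 6 genes, 0 were 1.5-fold lower and 0 higher in KO STZ against KO vehicle, where 0.656% and 0.445% of all genes were. In WT STZ against WT vehicle the counts were also 0 and 0, beside 0.445% and 1.27% of all genes. For the gap between the effects, KO minus WT, they were again 0 and 0, beside 3.91% and 1.76%. The comparisons of genotype and of STZ use the same 4 arrays and are not independent of each other.

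**Figure D3:**
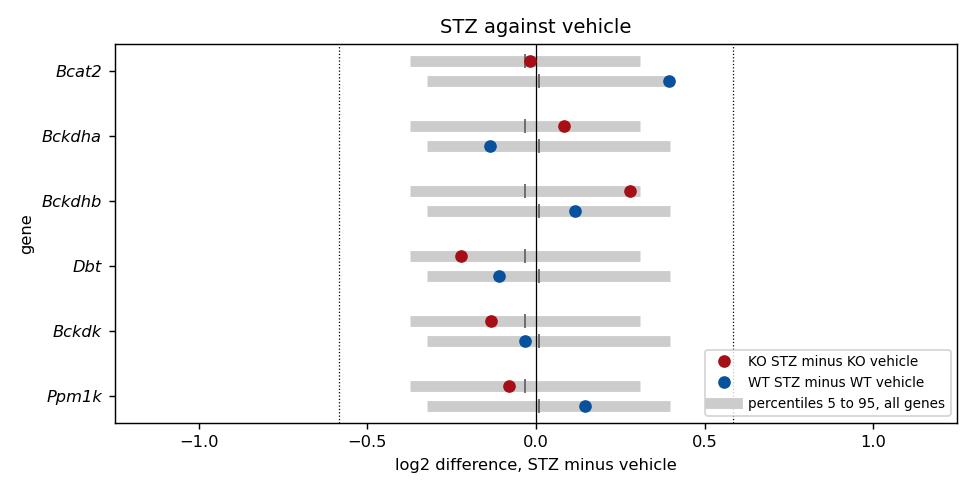
Log2 difference between STZ and vehicle (horizontal axis) of the 6 genes, with 1 point for KO and 1 for WT per gene; grey bars span percentiles 5 to 95 of all 13258 genes, ticks mark their median and dotted lines mark 1.5-fold. No point lies beyond a dotted line, and the point farthest from 0 is Bcat2 in WT, at 0.40.

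The profiles over the 4 arrays, each centred on its own mean, were compared by Euclidean distance on the log2 scale, which describes 4 values and nothing more. Nearest to Bcat2 were Zfp960 at 0.15, Prxl2a at 0.16, Vmn1r91 at 0.17, Prkx at 0.17 and Plin5, a lipid droplet protein of oxidative tissues, at 0.18. Zfp960 and Vmn1r91 belong to large families with close copies that can share probes, and Vmn1r91 was dim, at 6.57 to 15.9. Among the other genes of the first 2 steps, Bckdhb came closest to Bcat2, at 0.29, with 44 genes nearer.

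Nearest to Bckdhb were Pfkfb3, an enzyme that sets the level of the glycolytic activator fructose 2,6-bisphosphate, at 0.058, Pxmp2, a peroxisomal membrane protein, at 0.094, Lin52 at 0.10, Zfp958 at 0.16 and the signalling protein gene Wnt4 at 0.21. Zfp958 was dim, at 4.81 in KO vehicle to 14.6 in WT STZ. Pfkfb3 read 112 in KO STZ against 211 in WT STZ, and 96.4 in KO vehicle against 189 in WT vehicle. Nearest to Dbt were Lancl1 at 0.068, Zfyve21 at 0.088, the kynurenine aminotransferase gene Kyat3 at 0.11, Rpa3 at 0.14 and the histone gene H2bc21 at 0.16. The closest to Dbt of the other 5 genes past the filter was Bcat2, at 0.39 with 120 genes nearer. Bckdhb lay at 0.41 with 154 genes nearer, and Bckdha at 0.43 with 174.

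The remaining piece of the dehydrogenase, E3, is encoded by Dld and shared with the pyruvate and 2-oxoglutarate dehydrogenases. Dld read 734 in KO STZ against 954 in WT STZ, and 799 in KO vehicle against 820.4 in WT vehicle, log2 differences of -0.38 and -0.037. It was thus near WT under vehicle. Slc25a44, the mitochondrial carrier known to import branched-chain amino acids, read 33.9 in KO STZ against 59.1 in WT STZ, and 57.9 in KO vehicle against 54.1 in WT vehicle. The KO STZ array alone was low, with a difference of -0.74 from WT STZ and of -0.71 from KO vehicle.

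Further down the pathway, 5 of 16 measured genes of downstream breakdown were 1.5-fold or more below WT in KO under STZ and 3 of 16 under vehicle, with 0 above by that much under either. Their medians were -0.53 and -0.36, and the median under STZ was -0.33 after quantile normalization. Of all genes, 2.81% were 1.5-fold or more below WT under STZ and 0.777% under vehicle, and 0.845% and 0.581% were above. Aldh6a1, the methylmalonate semialdehyde dehydrogenase of valine breakdown, read 112 in KO STZ against 381 in WT STZ, and 129 in KO vehicle against 368 in WT vehicle. Mmut, the vitamin B12-dependent mutase that makes succinyl-CoA, stood at -0.94 under STZ and -0.77 under vehicle, and Ivd, which oxidises the leucine-derived isovaleryl-CoA, at -0.81 and -0.91. Mcee, the epimerase before the mutase, stood at -0.86 under STZ but 0.042 under vehicle.

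The sister complexes, built on the same plan of E1, E2 and E3, were nearer to WT on these arrays. Of 6 subunit genes of the pyruvate and 2-oxoglutarate dehydrogenases, 0 were 1.5-fold lower or higher under either treatment. Of all genes, 2.81% were lower and 0.845% higher under STZ, and 0.777% and 0.581% under vehicle, so a count of 0 says little. The 6 genes had medians of -0.020 under STZ and 0.054 under vehicle. The median under STZ turned to 0.15 after quantile normalization and 0.16 with a loess trend removed, so no direction is drawn from it. Pdha1, the E1 alpha subunit of pyruvate dehydrogenase, stood at -0.26 and 0.043, Pdhx, which tethers E3 to that complex, at 0.026 and 0.28, Dlst, the 2-oxoglutarate E2, at -0.18 and 0.059, and Dlat, the pyruvate E2, at 0.15 and 0.057. The level filter passed 6 kinases and phosphatases of pyruvate dehydrogenase, relatives in function of Bckdk and Ppm1k. Of these, 1 was 1.5-fold lower under STZ and 0 under vehicle, beside 2.81% and 0.777% of all genes. That gene was Pdk4, a kinase induced by fasting, at -0.65 under STZ and 0.11 under vehicle, and the count was 0 after quantile normalization or with a loess trend removed. All 6 were below WT under STZ, with a median of -0.32, or -0.20 after quantile normalization. The median under vehicle was -0.083. Pdpr, a regulator of the phosphatase, stood at -0.41 and -0.20, and the phosphatase subunits Pdp1 at -0.35 and -0.35 and Pdp2 at -0.29 and 0.040.

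**Figure D4:**
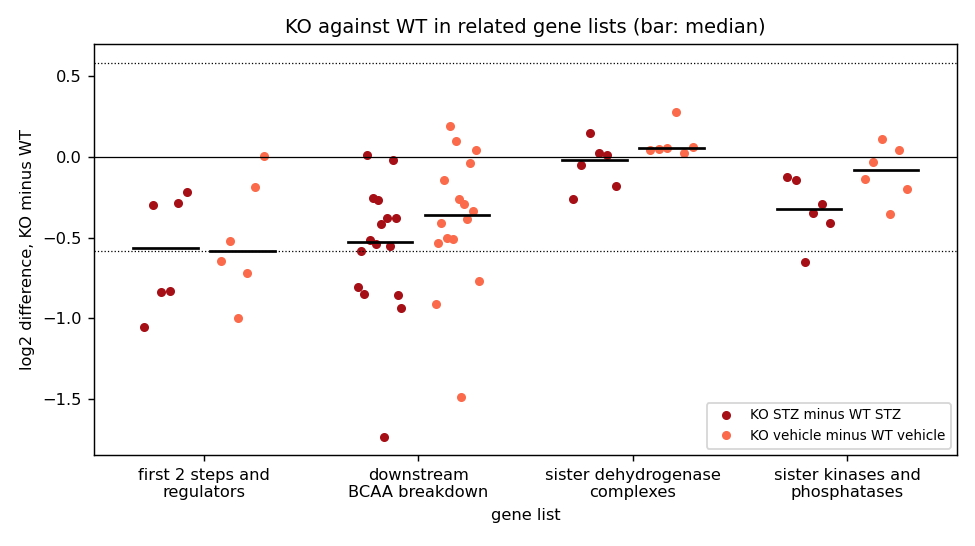
Log2 difference between KO and WT (vertical axis) of each gene past the level filter in 4 lists (horizontal axis), under STZ and under vehicle; bars mark list medians and dotted lines 1.5-fold. The genes of the first 2 steps and those downstream have medians from -0.58 to -0.36, while the sister dehydrogenase complexes have medians of -0.020, which turned to 0.15 after quantile normalization, and 0.054. The sister kinases and phosphatases have medians of -0.32 under STZ and -0.083 under vehicle.

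Of 6 transcriptional regulators of muscle or liver metabolism, 1 was 1.5-fold different between genotypes. This was the deleted gene Klf15, at -1.94 under STZ and -1.20 under vehicle. Ppargc1a, the PGC-1 alpha coactivator of mitochondrial genes, stood at 0.051 under STZ and 0.44 under vehicle. Esrra, the ERR alpha receptor, stood at 0.22 and -0.12, and the glucocorticoid receptor gene Nr3c1 at -0.12 and -0.11. In KO muscle the STZ differences were -0.25 for Klf15 and -0.016 for Bcat2, against 0.48 for Klf15 and 0.40 for Bcat2 in WT muscle. In WT muscle Bckdhb and Ppm1k were also higher, at 0.12 and 0.15, but Bckdha, Dbt and Bckdk were lower, at -0.14, -0.11 and -0.034. In KO muscle Bckdhb and Bckdha were higher, at 0.28 and 0.084, and Dbt, Bckdk and Ppm1k lower, at -0.22, -0.13 and -0.081. A link between these values was not tested.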

How the data were processed

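Gastrocnemius RNA of 4 groups was read on 4 Affymetrix arrays, 1 per group, as biotin-labelled cRNA per the labels' protocols. The deposited values are linear intensity values for 41345 transcript clusters; the sources used here do not give background correction, summary method or scaling between arrays. Array medians on the log2 scale lay within 0.035, and no further scaling was applied. Intensities were turned into log2(intensity + 3.69), the offset being percentile 25 of all values, which understates changes of dim genes. Each gene took the brightest of its clusters that carry 1 gene symbol. Genes whose mean log2 value exceeded the median of all clusters (13258 of 22180) were kept.

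Differences were taken for KO against WT under each treatment, STZ against vehicle in each genotype, and the gap between the STZ effects, KO minus WT. Values were counted past 1.5-fold and set beside the share of all kept genes past it. No test could be run. The number of arrays limits the precision. The genes and lists were chosen with earlier results of these data known. Values were printed for up to 4 genes per related list, those with the largest KO difference, and for the 5 nearest profiles of each gene past 1.5-fold. Promoter windows came from RefSeq (GRCm38.p6), for 6 of 7 genes. Counting was tested on simulated data with added log2 changes of 1.5, well past the mark. This checks the code and does not cover changes near 1.5-fold. Alternatives were quantile normalization, a loess trend removed (span 0.3), shifting arrays to one median, an offset of 0.1 or 3 times the main one, no level filter or one at percentile 75, averaging a gene's clusters, and 2-fold. Python 3.11.15, pandas 2.3.3 and statsmodels 0.14.6 were used.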

Additional observations from a re-analysis of the deposited data

Results flagged for a closer look

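The STZ effect had opposite signs in the 2 genotypes for 3 of the 6 genes past the level filter, as it did for 48.4% of all genes. Bcat2 is 1 of these 3, but its effect in KO was -0.016. It turned sign after quantile normalization and with a loess trend removed, and most of the 8 alternatives could not turn it. The log2 gap between the effects, KO minus WT, was -0.41 for Bcat2, 0.22 for Bckdha and -0.23 for Ppm1k. For Bcat1, below the level filter, it was -0.19. With 1 array per group these differences were not tested.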

How the results depend on the processing

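The counts of genes at least 1.5-fold lower or higher in the 5 comparisons stayed within 1.5 times of their values under the 8 alternatives of scaling, offset, level filter and cluster choice. One gene crossed the mark: Bcat2 in KO vehicle against WT vehicle stood at -0.55 with 3 times the offset. At 2-fold, in the main setting, the count of lower genes was 0 in KO vehicle against WT vehicle and 1 in KO STZ against WT STZ. Under the alternatives, Bckdhb under vehicle and Bcat2 under STZ fell on either side of 2-fold. Over the 8 alternatives, KO against WT under STZ ranged from -1.13 to -0.92 for Bcat2, -0.91 to -0.71 for Bckdhb and -0.87 to -0.67 for Dbt. Under vehicle the ranges were -0.70 to -0.55, -1.10 to -0.83 and -0.74 to -0.69, in the same order. The alternatives of level filter and cluster choice repeat the main value, since each gene had 1 cluster, so only scaling and offset set these ranges. The gap between the STZ effects, KO minus WT, changed sign for Dbt in 1 alternative and for Bckdk in 2, with highest values of 0.016 and 0.031. Of 560 counts over the related lists under alternatives, 549 stayed within 1.5 times of their value. No paired analysis was possible because each group holds 1 array and the labels give no replicate numbers; for the same reason no array could be left out.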

Other observations

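Of 5 genes that bring branched-chain amino acids into the fibre, 0 were 1.5-fold different between KO and WT under either treatment, though 1 was higher under STZ after quantile normalization or with a loess trend removed. Of all genes, 2.81% were lower and 0.845% higher under STZ, and 0.777% and 0.581% under vehicle. Slc7a8, a carrier of large neutral amino acids, read 123 in KO STZ against 87.4 in WT STZ, and 147.6 in KO vehicle against 147.2 in WT vehicle, so the WT STZ array was the low one. It was the 1 uptake gene at least 1.5-fold lower in WT STZ than in WT vehicle, at -0.73. Slc43a1, another such carrier, stood at -0.37 in KO against WT under STZ and -0.20 under vehicle, Slc7a5 at -0.26 and 0.010 and Slc43a2 at -0.23 and 0.12.

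Of 6 genes that handle the glutamate made by transamination, 0 were 1.5-fold different between genotypes, though 1 was lower under vehicle with 0.1 times the offset. The shares of all genes are those given for the uptake genes. Gpt, an alanine aminotransferase, read 22.0 in KO STZ against 21.0 in WT STZ, and 13.0 in KO vehicle against 19.96 in WT vehicle, so the KO vehicle array was the low one. Its STZ effect was 0.62 in KO and 0.063 in WT. Glud1, the glutamate dehydrogenase, stood at -0.33 in KO against WT under STZ and 0.060 under vehicle, Got1, the cytosolic aspartate aminotransferase, at -0.092 and 0.26, and Glul, the glutamine synthetase, at -0.18 and -0.23.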
